A study of Schmidtea mediterranea with 4 samples.

Results

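*LamA* (SMESG000056013.1) encodes an extracellular matrix component that the study used as a marker of somatic gonadal cells in the planarian flatworm *Schmidtea mediterranea*. It is 1 gene of the 22192 counted, and it was followed here in cells without a transcript of *nrps* (SMESG000023215.1), the nonribosomal peptide synthetase gene of the gonadal niche. The study lists *LamA* by a transcript number, and its gene number was read from that in the way the pair of numbers for *nrps* is formed. Single-cell RNA sequencing (scRNA-seq) had been done on 4 libraries of the sexual strain, anterior 1 and 2 and posterior 1 and 2. Each library came from tissue sections of 15 to 20 pooled, sexually mature animals, kept at 18 °C and starved for 1 week, whose dissociated cells were stained with Hoechst and propidium iodide and sorted. No animal carried a transgene, knockdown or treatment in these libraries, and the 2 groups differed by the body region taken. The labels do not say whether the libraries of a region came from different animals or suspensions, so *P* values measure the spread between these libraries, which may be technical.

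Laminins, after which the gene is named, are glycoproteins of basement membranes, the sheets of matrix on which epithelia, muscle and the sheaths of gonads rest. Cells bind them through receptors of the integrin family. In planarian gonads and vitellaria (the glands that make yolk cells), somatic support cells wrap the germ cells or yolk cells, and *LamA* marks support cells of the vitellaria. The question asked of the data was where *LamA* transcripts lie when cells with *nrps* are set aside, and whether they differ between the 2 body regions.

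The 4 libraries held 48216 cells, between 6721 and 19080 in a library, and between 11513838 and 72094246 transcripts counted by unique molecular identifiers (UMIs). Median UMIs per cell were 1208 and 1218 in the anterior libraries and 3297.5 and 2394.5 in the posterior libraries, so posterior cells held more UMIs. Whether this came from sequencing, RNA content or the mix of cells was not tested. Between 16 and 53 cell barcodes were shared by any pair of libraries. The labels give reproductive organs as the cell type, but *nrps* was detected in 162 cells only, and *klf4l* (SMESG000031008.1), a gene of germline stem cells, in 232 of the other cells. Cells were grouped into 53 numbered clusters by their shared transcripts, without *LamA*, *nrps*, *klf4l* and *nrps* (gut) (SMESG000014974.1), the *nrps*-related gene of the intestine. The gene IDs carry no names in the files, so clusters are given by number and no cell type is named.

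*LamA* was detected in 1608 of the 48054 *nrps*-negative cells (3.35%, exact binomial 95% interval 3.19 to 3.51), which held 2611 *LamA* UMIs. In CPM, the standard scaling of a gene's counts by all UMIs of the same cells, this level is 16.6 (exact Poisson interval 15.9 to 17.2). These intervals, and all others given here, cover counting error only. Among the 162 *nrps*-positive cells, 50 held *LamA* (30.9%), at 632 CPM. Cells without *nrps* therefore held most *LamA* UMIs of the data set, at a lower share and level than cells with *nrps*.

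Absence of a *nrps* UMI does not show that a cell lacked *nrps*, and the cluster richest in *nrps*-positive cells was therefore kept apart. This *nrps* cluster (cluster 52) held 55 cells, of which 34.5% were *nrps*-positive. These were 19 of the 162 *nrps*-positive cells, and clusters 8, 19 and 30 held 21, 18 and 7. Most *nrps*-positive cells thus lay outside the *nrps* cluster. Of the 36 *nrps*-negative cells of the *nrps* cluster, 30 were *LamA*-positive (83.3%), at 2454 CPM. Outside it, 48018 *nrps*-negative cells remained, with 1578 *LamA*-positive cells, 2483 UMIs and 15.8 CPM. *LamA* was therefore seen far beyond the *nrps* cluster, although the level there was much lower.

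Most positive cells held a single transcript. Of the 1608 *LamA*-positive cells, 1162 (72.3%) held 1 UMI, 262 held 2, 117 held 3 to 4, 52 held 5 to 9 and 15 held 10 or more. The 15 richest cells held 8.31% of the *LamA* UMIs, and the highest count in a cell was 31. The mean was 1.62 UMIs per positive cell. Among the 15859 genes with at least 200 UMIs in *nrps*-negative cells, this output per positive cell lay above that of 76.4% of genes, while the share of positive cells lay above that of 42.5%.

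**Figure D1:**
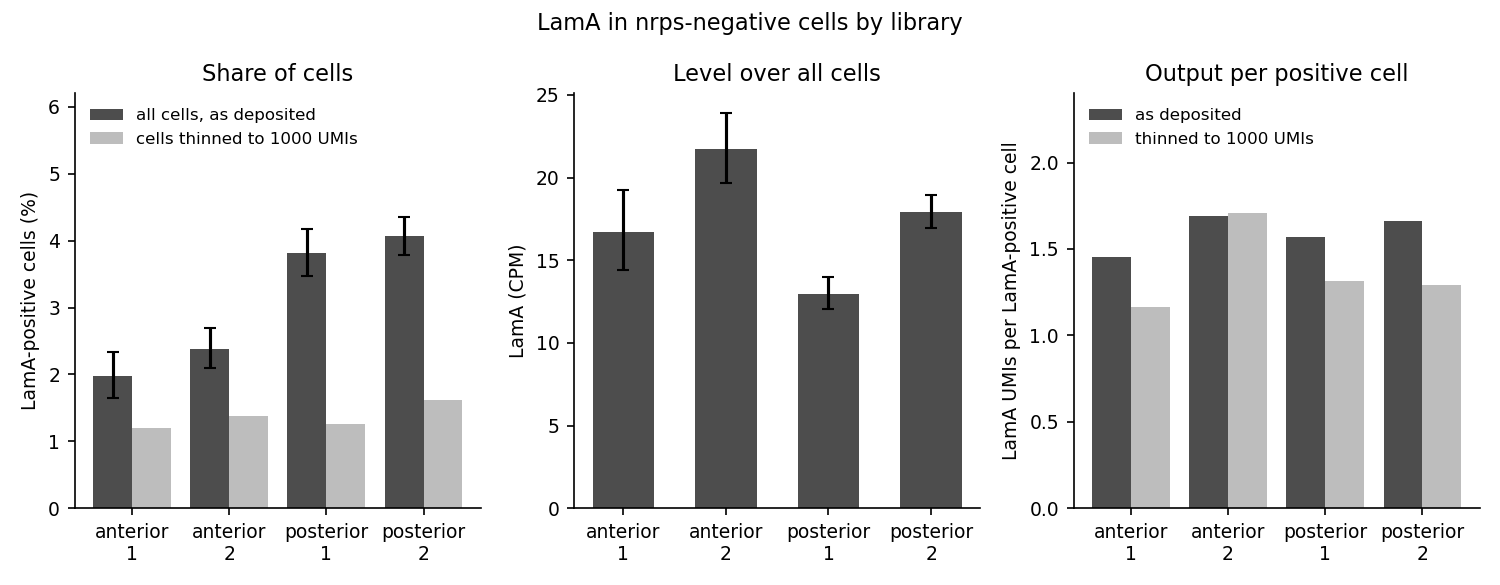
*LamA* in *nrps*-negative cells of each library. Left, the share of positive cells (%) with exact binomial 95% intervals (dark bars), and the expected share with each cell thinned to 1000 UMIs (light bars); center, CPM with exact Poisson 95% intervals; right, UMIs per positive cell, before and after thinning. Unthinned posterior shares of 3.81% and 4.07% lie above anterior shares of 1.97% and 2.38%, and the thinned shares overlap between 1.199% and 1.62%.

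By body region, the share of *LamA*-positive cells depended on depth. As deposited, it was 1.97% and 2.38% in the anterior and 3.81% and 4.07% in the posterior libraries. Posterior values were thus higher without overlap, with means of 3.94% ± 0.179 (SD, n = 2) against 2.17% ± 0.286 (SD, n = 2), in an exact two-sided permutation test with p = 0.333, the smallest that 2 against 2 libraries allow. With each cell thinned to 1000 UMIs, and cells under 1000 UMIs left out, the shares were 1.199% and 1.37% in the anterior and 1.26% and 1.62% in the posterior libraries. These overlapped, with a mean difference of 0.157 percentage points (exact permutation test, two-sided, p = 0.667). Outside the clusters with more than 1% *nrps*-positive cells, the thinned shares were 1.18% and 1.209% in the anterior and 1.213% and 1.55% in the posterior libraries. These did not overlap (exact permutation test, two-sided, p = 0.333), but anterior 2 and posterior 1 were almost equal. In CPM, 33.5% of the 15859 genes with at least 200 UMIs did not overlap between the regions, so lack of overlap is common. The same was not counted for shares of cells. Thinned to 2000 UMIs, the shares of all *nrps*-negative cells overlapped, with a difference of 0.602 percentage points. Thinning to 1000 UMIs left 4128 and 6281 anterior cells and 10371 and 14873 posterior cells.

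The output per positive cell did not separate the regions either. It was 1.45 and 1.69 UMIs in the anterior and 1.57 and 1.66 UMIs in the posterior libraries as deposited. After thinning it was 1.16 and 1.71 in the anterior libraries and 1.31 and 1.29 in the posterior libraries. Anterior 2 stood highest and anterior 1 lowest, and the difference of the means was -0.132 UMIs (exact permutation test, two-sided, p = 1). The high value of anterior 2 was not seen once the clusters with more than 1% *nrps*-positive cells were set aside, where the thinned output was 1.17, 1.19, 1.18 and 1.25 UMIs in the 4 libraries.

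The *LamA* level was 16.7 and 21.7 CPM in the anterior and 12.98 and 17.9 CPM in the posterior libraries. The regions overlapped, with posterior 1 lowest and anterior 2 highest. On sums per library, edgeR's quasi-likelihood test gave a log2 fold change of -0.29 (posterior minus anterior, SE 0.29, Benjamini-Hochberg adjusted *P* = 0.999), and 0.144% of 18709 genes tested passed an adjusted *P* of 0.05 in this comparison. The sign was not stable, because cells of 1000 to 4000 UMIs gave 0.21 and the mean over clusters, each weighted equally, gave 0.37. That mean gives full weight to clusters with few *LamA* UMIs. By the log2 difference of mean CPM, the median of 50 clusters was 0.02, with 25 clusters higher in the posterior libraries and 22 lower. In summed libraries, fewer cells with *LamA* and less *LamA* per cell cannot be told apart.

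**Figure D2:**
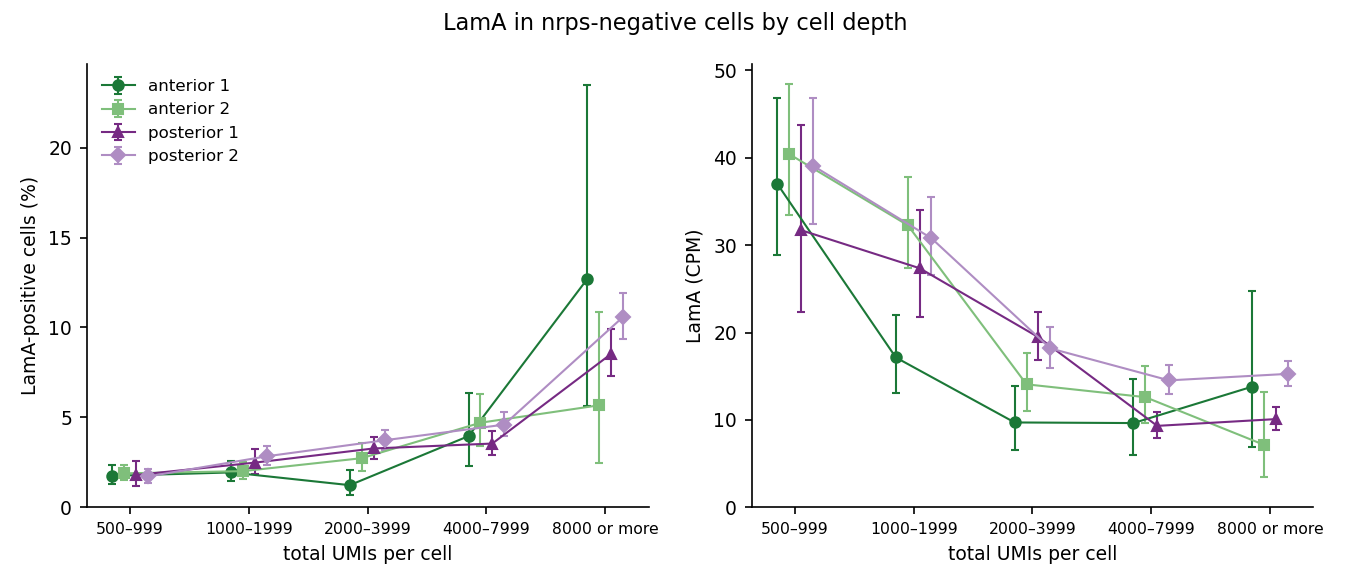
*LamA* in *nrps*-negative cells grouped by total UMIs per cell, for each library. Left, the share of positive cells (%) with exact binomial 95% intervals; right, CPM with exact Poisson 95% intervals. The pooled share rises from 1.79% to 9.57% with depth, while the pooled level is 38.1 CPM in the shallowest cells and 12.8 CPM in the deepest.

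Pooled over libraries, both measures differed with depth. The share of *LamA*-positive cells was 1.79% in cells of 500 to 1000 UMIs, 2.36% from 1000, 3.17% from 2000, 4.18% from 4000 and 9.57% from 8000 UMIs upward. The level went the other way, from 38.1 CPM in the shallowest cells through 27.8, 17.1 and 12.1 CPM to 12.8 CPM in the deepest. At equal depth the libraries were not always alike. In cells of under 1000 UMIs they held 37.0 and 40.4 CPM (anterior) and 31.7 and 39.1 CPM (posterior), with overlapping intervals. From 1000 to 2000 UMIs, anterior 1 (17.1 CPM) lay below anterior 2 (32.3 CPM) with separate intervals. Their shares of positive cells, 1.94% and 2.01%, had overlapping intervals. From 2000 to 4000 UMIs, the libraries held 9.71 and 14.1 CPM (anterior) and 19.5 and 18.2 CPM (posterior), and the interval of anterior 1 lay below both posterior intervals. From 4000 UMIs upward, the CPM of posterior 1 lay below that of posterior 2 with separate intervals in both groups of cells, while the intervals of their shares overlapped. Poisson intervals take UMIs as independent, although several can come from 1 cell. Shares of the clusters described singly are therefore given beside the thinned share.

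*LamA* was spread unevenly over cell clusters. Of the 51 clusters with at least 50 *nrps*-negative cells outside the *nrps* cluster, 48 held *LamA*. The other 3 held 820 cells with 0 positive cells, which allows a share of up to 0.366% of cells with a *LamA* UMI (3 counts of the total). The median cluster had 1.57% positive cells and 7.70 CPM. The 5 clusters with the highest CPM held 45.8% of *LamA* UMIs in 5.42% of the cells, and the first 10 held 62.3% in 16.7%. The 5 clusters with most UMIs held 55.2% for *LamA* and 54.0% for the median of 15859 genes, so this concentration is common. *LamA* stood out more by its highest cluster level, 29.0 times that of all clusters. This ratio was 5.16 for the median gene, and that of *LamA* lay above 86.8% of genes. Below these 10, 40000 cells had 1.87% positive cells and 6.83 CPM. Free RNA in the droplets can give single UMIs in cells that do not express a gene, and its part in this low level was not tested, since no cell type that should lack *LamA* could be named. The share after thinning followed the median depth of the clusters weakly (Spearman's rho 0.093 over 51 clusters, which share libraries), against 0.353 before thinning.

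**Figure D3:**
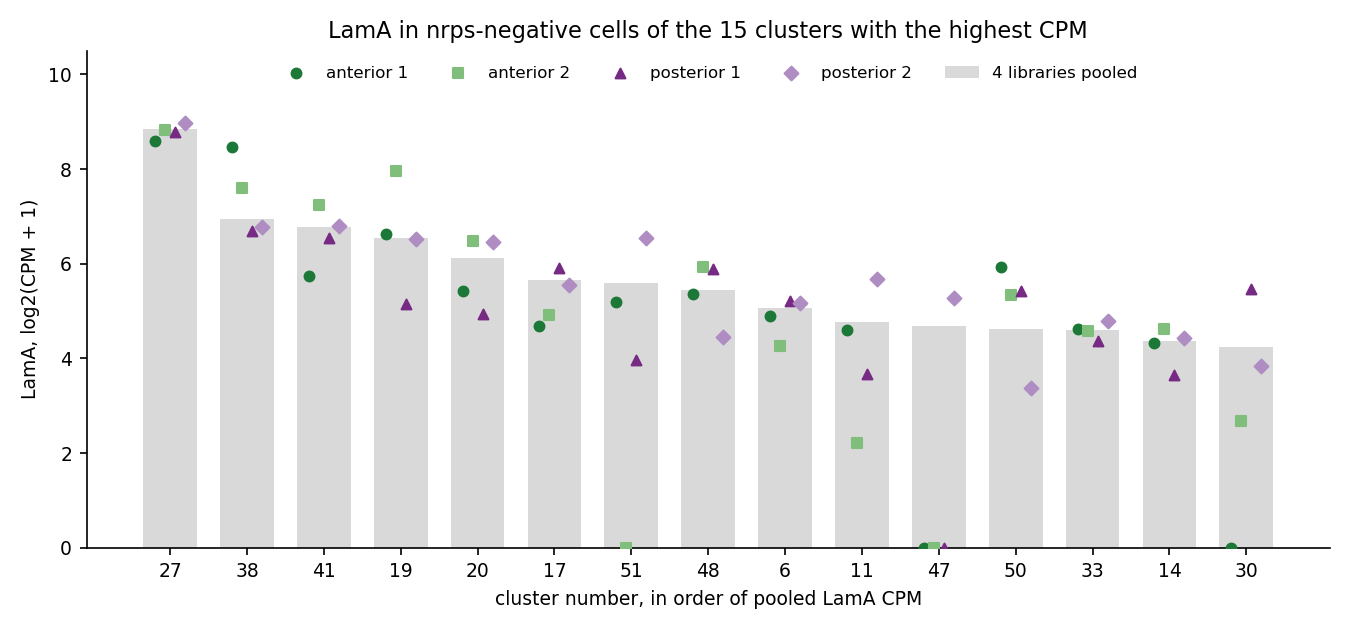
*LamA* in *nrps*-negative cells of the 15 clusters with the highest pooled level, on a log2(CPM + 1) scale. Bars are the 4 libraries pooled and points are single libraries. Cluster 27 lies between 385 and 498 CPM in the 4 libraries, above every library of cluster 38, and the clusters after it overlap.

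Cluster 27 led. It held 523 *nrps*-negative cells, and *LamA* was detected in 218 of them (41.7%, exact binomial 95% interval 37.4 to 46.0), or 32.2% after thinning to 1000 UMIs. Its level was 385 CPM in anterior 1, 452 in anterior 2, 439 in posterior 1 and 498 in posterior 2 (pooled 457 CPM, SD between libraries 46.5, n = 4). The 4 libraries were close to each other, and all of them lay above the 102 to 352 CPM of cluster 38, the next in order. With 1.09% of the cells, cluster 27 held 18.4% of the *LamA* UMIs outside the *nrps* cluster. Across 18 other settings of clustering and cells, the leading cluster held between 15.5% and 22.03% of these UMIs. At least 83.4% of the cells of cluster 27 that entered a setting lay in its leading cluster. The cluster is chosen by its *LamA* level, so its rank is a description.

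The leading genes of the *nrps* cluster were nearly absent from cluster 27. The *nrps* cluster is led by SMESG000060276.1 and SMESG000066649.1, the genes with the largest ratio of CPM to that of all other cells, and their low share elsewhere is a description, since they were chosen by that ratio. At least 1 of these was detected in 34 of the 36 *nrps*-negative cells of the *nrps* cluster (94.4%). In cluster 27 it was detected in 1 of 218 *LamA*-positive cells (0.459%, exact interval 0.0116 to 2.53). None of its 305 *LamA*-negative cells held one, which allows up to 0.984% (3 counts of the total). Cells without *LamA* in the clusters ranked below the first 6 showed a share of 0.506%. Their median depth was 1886 UMIs, and it was 1888 UMIs in the *LamA*-positive cells of cluster 27. One cell of cluster 27 was *nrps*-positive, or 0.191% of the cluster.

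The leading genes of cluster 27 were SMESG000008013.1, at 206 CPM in the cluster against 0.10 CPM in all other cells, and SMESG000017804.1, at 2085 against 1.46 CPM and detected in 51.9% of its cells. *LamA* ranked 216th by the same ratio among the 2014 genes that reached 100 UMIs there, and 13th among 61 in the *nrps* cluster. Many genes thus stood out more in cluster 27 than *LamA* did. A doublet score marked 33.1% of the *nrps*-negative cells of cluster 27 and 72.2% of those of the *nrps* cluster, against 11.0% of all cells. Its 350 unmarked cells stood at 506 CPM, so the level of cluster 27 was as high without the marked cells. Clustered anew without them, the leading cluster held 292 cells, at 526 CPM.

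Cluster 38 came second, with 262 cells, 19.8% *LamA*-positive (10.0% thinned) and 122 CPM. Its libraries held 352 and 194 CPM (anterior) and 102 and 108 CPM (posterior). The anterior values rested on 12 and 5 *LamA* UMIs in 27 and 15 cells. Cluster 41 held 225 cells, 16.0% positive (10.7% thinned), at 53, 150, 92 and 110 CPM in the 4 libraries, from 1, 5, 4 and 33 UMIs. The ranges of these clusters overlapped, as did those of every neighboring pair from there to the 13th cluster, so their order is not resolved by their ranges. Compared within libraries, cluster 19 lay above cluster 20, the next in order, in 4 of 4, cluster 38 above cluster 41 in 3 of 4 and cluster 41 above cluster 19 in 2 of 4.

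Cluster 19 held 817 *nrps*-negative cells and 92.0 CPM, with 97.6 and 247 CPM in the anterior and 34.6 and 90.8 CPM in the posterior libraries. Its *LamA* lay in few cells. Of its 90 *LamA*-positive cells (11.0%, or 5.12% thinned), 12 held at least 5 UMIs each, and these 12 held 54.8% of the cluster's UMIs. The doublet score marked 25.6% of the 90 *LamA*-positive cells, against 10.2% of the 817 cells. In cluster 27 the order was the other way, at 27.5% and 33.1%. The part of doublets in the *LamA* of cluster 19 was not tested. The cluster also held 18 *nrps*-positive cells, 2.16% of its cells, with 284 *LamA* UMIs at 6536 CPM. None of these 18 had either leading gene of the *nrps* cluster (a share of up to 16.7%, 3 counts of the total), and 1 of the 12 *nrps*-negative cells rich in *LamA* had one. At resolution 2 of the clustering, 48 *nrps*-negative cells of cluster 19 formed a cluster of their own, under the minimum of 50 cells, with 13 *LamA*-positive cells (27.1%, 15.8% thinned), 24 UMIs and 211 CPM. Of the 50 cells with *nrps* and *LamA*, 19 lay in the *nrps* cluster, 15 in cluster 19, 3 each in clusters 8 and 30, and the rest elsewhere. Whether the 12 *nrps*-negative cells of cluster 19 rich in *LamA* lacked *nrps* cannot be told at a median depth of 1492.5 UMIs.

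Cluster 20 differed from cluster 19 in how *LamA* was distributed. It held 776 deep cells (median 4797 UMIs), of which 19.2% were *LamA*-positive, or 6.01% after thinning, at 69.0 CPM. Its libraries held 42.2 and 88.8 CPM (anterior) and 29.8 and 86.8 CPM (posterior). Cells with at least 5 UMIs numbered 10, with 12247.5 UMIs as their median depth, and 9 of these came from posterior 2. Cluster 17 had 974 cells, 9.96% positive (4.30% thinned) and 49.7 CPM, with 24.9 and 29.4 CPM in the anterior and 59.1 and 45.9 CPM in the posterior libraries. Its anterior values rested on 1 and 2 *LamA* UMIs in 34 and 44 cells.

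Cells with at least 5 *LamA* UMIs numbered 52 outside the *nrps* cluster. Of these, 21 lay in cluster 27, 12 in cluster 19 and 10 in cluster 20, and the remaining 9 lay in 8 other clusters. Of the 21 in cluster 27, 15 came from posterior 2 and none from anterior 1.

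The share of cells that cluster 27 took did not overlap between the regions. It held 1.84% and 1.498% of the *nrps*-negative cells outside the *nrps* cluster in the anterior libraries and 0.760% and 0.811% in the posterior libraries. Both anterior libraries lay above both posterior libraries, with a difference of the means (posterior minus anterior) of -0.882 percentage points (exact permutation test, two-sided, p = 0.333, the smallest possible). Among all 51 clusters, 35.3% did not overlap between the regions in their share of cells, 10 with anterior (19.6%) and 8 with posterior (15.7%) libraries higher, so this is common among clusters. Clusters 17 (0.508% and 0.425% against 2.52% and 3.13%) and 38 (0.403% and 0.145% against 0.660% and 0.742%) went the other way. Of the *LamA* UMIs, it held 34.4% and 22.9% in the anterior and 15.7% and 16.2% in the posterior libraries. Outside cluster 27 the level was 10.6 and 15.8 CPM in the anterior and 10.3 and 14.6 CPM in the posterior libraries, again overlapping. Cluster 27 cells were shallow (median 1292 UMIs) and the anterior libraries were shallow too, and the part of depth in this difference was not tested.

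Within cluster 27, the *LamA* level of the regions overlapped. The log2 fold change was 0.20 (posterior minus anterior, SE 0.37, adjusted *P* = 0.999, edgeR), where 0.224% of 4466 genes passed the test. The difference between this value and that of all other cells was 0.29 (SE 0.42, adjusted *P* = 1, edgeR interaction test with the library as a block, 0.118% of 16156 genes passing), and the median gene in that test lay at 0.15. A difference of regional effect between cluster 27 and the other cells was not detected, in a test that recovered 31 of 200 planted log2 differences of 2 and 68 of 200 of 3 in simulated data of 16156 genes. The planted genes were drawn at random and not at the count of *LamA*, which held 63 to 200 UMIs per library in cluster 27. This recovery is therefore not that for *LamA*, whose own SE was 0.42.

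Over the 17 clusters with at least 30 *LamA* UMIs and cells in all 4 libraries, the regions did not overlap in 6. Posterior values were higher in 4 (clusters 17, 6, 30 and 4) and anterior values in 2 (clusters 38 and 19). In the anterior libraries, cluster 17 rested on 1 and 2 *LamA* UMIs and cluster 30 on 0 and 2. Of all 327465 pairs of a gene and a cluster with at least 30 UMIs, 33.0% did not overlap, so the count of 6 clusters stood near that of any gene.

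Cells with *LamA* were next compared with *LamA*-negative cells of the same library and cluster, the nearest in depth, outside the *nrps* cluster. Each of the 1578 positive cells was given up to 3 such cells, or 4383 in all (median 3666.5 against 3771 UMIs), and sums per library were tested with the library as a block. Of 13084 genes, 627 passed (4.79%), 583 higher (4.46%) and 44 lower (0.336%) in *LamA*-positive cells. The median size of a change among them was 1.00 on the log2 scale. Cluster 27 made up 13.8% of the positive cells but 6.96% of the matched cells, because its *LamA*-negative cells ran out. All 305 of these were used, at a median of 1001 UMIs against 1888 UMIs in its *LamA*-positive cells, so depth was not matched there. Of the 583 higher genes, 281 (48.2%) had their highest cluster level in cluster 27, as had 5.91% of all genes tested.

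With 1 matched cell for each positive cell, cluster 27 made up 13.7% of the matched cells, and 166 genes passed, 150 higher and 16 lower. Of these, 154 were among the 627, all with the same sign. Cluster 27 was still the cluster of highest level for 34.7% of the 150 higher genes, against 5.91% of all genes tested. Without cluster 27 altogether, 159 genes passed, of which 148 were among the 627. Of the 146 higher genes there, 19.9% had their highest level in cluster 27. Within cluster 27 alone, 40 of 1679 genes passed, 26 higher and 14 lower, with *LamA*-positive cells deeper than their matches (median 1887 against 1297 UMIs). Without the library as a block, edgeR called 0 genes, with 155 at an unadjusted *P* under 0.05.

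**Figure D4:**
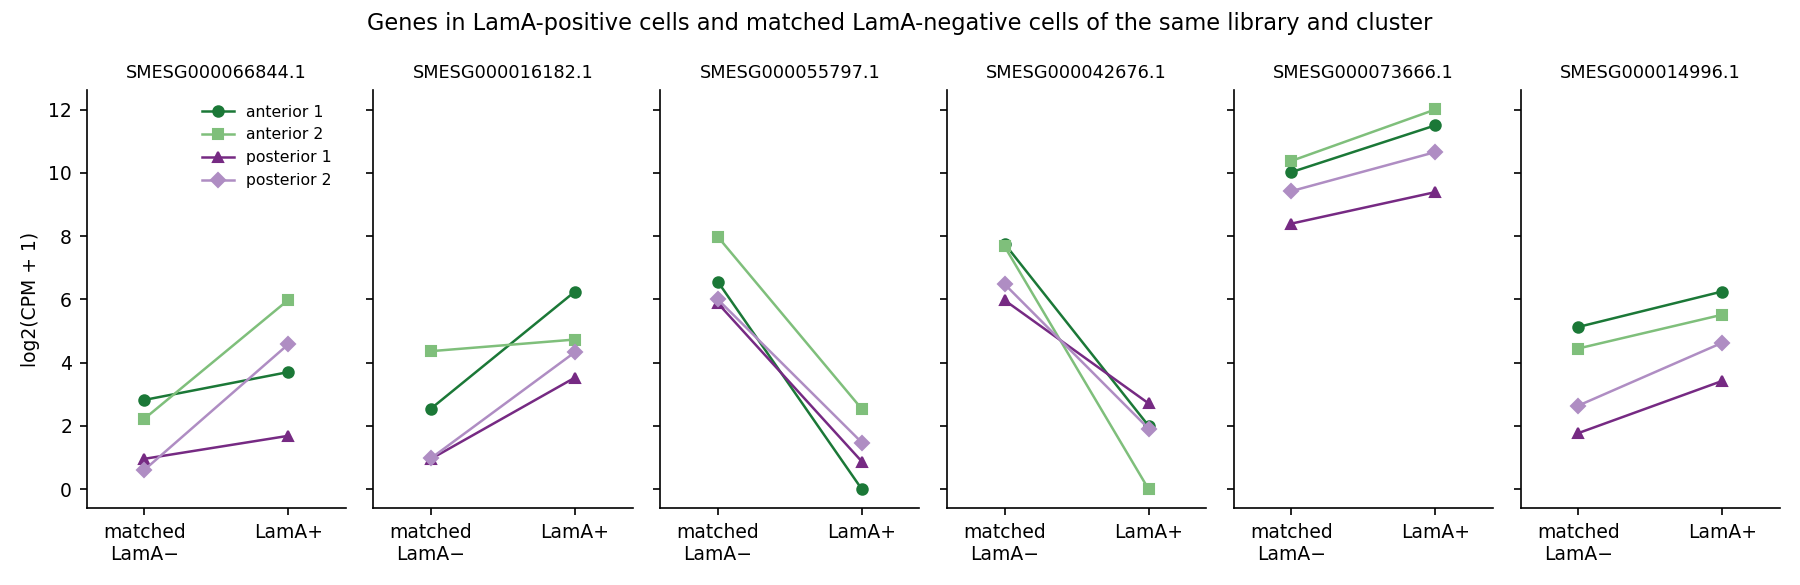
Levels of 6 genes, on a log2(CPM + 1) scale, in *LamA*-positive cells (LamA+) and in matched *LamA*-negative cells of the same library and cluster (LamA−). Each line is 1 library. In 4 of 4 libraries SMESG000055797.1 and SMESG000042676.1 lie lower in *LamA*-positive cells, and SMESG000066844.1, SMESG000016182.1, SMESG000073666.1 and SMESG000014996.1 lie higher.

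The 2 genes with the largest rise were SMESG000066844.1 and SMESG000016182.1. SMESG000066844.1 stood at 12.03 and 62.4 CPM (anterior) and 2.22 and 23.0 CPM (posterior) in *LamA*-positive cells, against 6.07, 3.68, 0.945 and 0.524 CPM in matched cells. All 4 libraries were higher, by 3.63 on the log2 scale (SE 0.56, adjusted *P* = 0.00188, edgeR; 1.5e-22 to 1 over the 10 alternatives in edgeR and DESeq2 that tested it). The alternatives without top doublet scores, after thinning and without posterior 2 did not test this gene. SMESG000016182.1 stood at 75.2, 25.6, 10.6 and 19.2 CPM against 4.86, 19.6, 0.945 and 0.973 CPM, higher in 4 of 4 libraries by 2.89 (SE 0.49, adjusted *P* = 0.00361, edgeR; 4.5e-23 to 1 over 14 alternatives). Both rested on few cells of cluster 19. SMESG000066844.1 was detected in 27 of the 1578 *LamA*-positive cells, and 91.6% of its UMIs there lay in cluster 19 and 68.3% in 5 cells. SMESG000016182.1 was detected in 24 of them, with 67.05% of its UMIs in 5 cells and 94.3% in cluster 19, where *LamA* and *nrps* occurred together. Outside clusters with more than 1% *nrps*-positive cells, neither gene was tested.

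The 2 genes with the largest fall were SMESG000055797.1 and SMESG000042676.1. SMESG000055797.1 stood at 0, 4.80, 0.833 and 1.78 CPM in *LamA*-positive cells and at 93.5, 252, 58.0 and 63.1 CPM in matched cells, lower in 4 of 4 libraries (log2 fold change -5.55, SE 0.18, adjusted *P* = 2.8e-09, edgeR). SMESG000042676.1 stood at 3.01, 0, 5.56 and 2.77 CPM against 216, 204, 61.9 and 88.5 CPM (log2 fold change -4.62, SE 0.25, adjusted *P* = 8.8e-07, edgeR). Both rested on a handful of cells of cluster 38. There, 25 matched cells held 1822 of the 1883 UMIs of SMESG000055797.1, and 23 held 2213 of the 2283 UMIs of SMESG000042676.1, with up to 410 and 451 UMIs in a single cell. No *LamA*-positive cell of cluster 38 held SMESG000055797.1, and 1 held SMESG000042676.1. Over all clusters, SMESG000042676.1 was detected in 28 of 1578 *LamA*-positive cells (1.77%) and 87 of 4383 matched cells (1.99%), and SMESG000055797.1 in 14 (0.887%) and 80 (1.83%). Over all clusters, the share of cells that held them thus differed less than their UMIs. In cluster 38, with 52 *LamA*-positive cells and up to 3 matches for each, the number of cells that held them differed as well. The adjusted *P* of each ranged up to 0.147 over 15 alternatives in edgeR and DESeq2, the highest without the library as a block. The test sums cells, and a few rich cells can set its value.

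*nrps* (gut) did not pass this test (log2 fold change -0.02, SE 0.15, adjusted *P* = 0.991), nor did *klf4l* (log2 fold change -1.31, SE 0.58, adjusted *P* = 0.265, edgeR). The value of *klf4l* passed in 2 of 13 alternatives, with a filter of at least 1 UMI (-1.34, adjusted *P* = 3.0e-05) and without anterior 2 (-2.07, adjusted *P* = 0.0275), and its adjusted *P* ranged up to 1 in edgeR and DESeq2. In *nrps*-negative cells, *LamA* was found in 9 of the 232 *klf4l*-positive cells (3.88%) against 3.34% of *klf4l*-negative cells, at median depths of 4765.5 and 1933 UMIs. After thinning the shares were 0.653% and 1.43%. In cells with *nrps* (gut) it was 5.42% against 3.18%, at depths of 5071 and 1811 UMIs, and after thinning 1.19% against 1.45%. Both orders turned with depth, and no association is read from them.

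Likeness to *LamA* was measured by Pearson's r over the 51 clusters, on log2(CPM + 1). Of 15849 genes, none exceeded an r of 0.8 and 11 exceeded 0.5, so no gene followed *LamA* closely over the clusters. The clusters share libraries and depth, and the values are a description. The highest were SMESG000073666.1 and SMESG000014996.1, both at 0.54. Within single libraries, r was 0.16, 0.28, 0.35 and 0.53 for SMESG000073666.1 and 0.36, 0.48, 0.52 and 0.51 for SMESG000014996.1. Over single cells, r was 0.22 and 0.15. The rank of both genes depended on the setting. Without cluster 27, r was 0.42 and 0.37, and the genes stood 14th and 43rd. By Spearman's rank correlation they stood 54th and 276th (rho 0.37 and 0.30), and without posterior 2 they stood 48th (r = 0.42) and 2nd (r = 0.53).

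**Figure D5:**
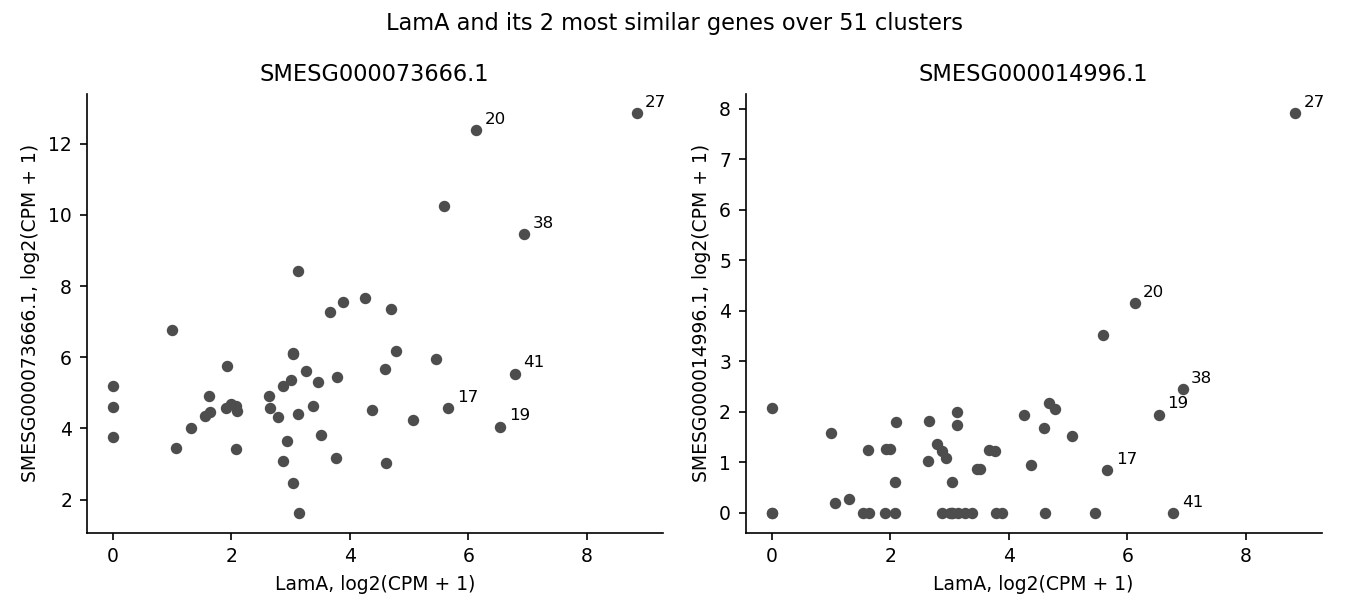
*LamA* and the genes most like it over 51 clusters of *nrps*-negative cells, each axis log2(CPM + 1) and each point a cluster. Numbers mark the 6 clusters with the highest *LamA* level. SMESG000073666.1 (left) is highest in clusters 27 and 20 and low in 19 and 41, and SMESG000014996.1 (right) reaches 238 CPM in cluster 27.

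SMESG000073666.1 had its highest level in cluster 27, at 7356 CPM, against 247 CPM over all clusters compared. In the comparison of matched cells it stood at 2909, 4119, 673 and 1619 CPM in *LamA*-positive cells and at 1042, 1333, 336 and 687 CPM in matched cells. It was higher in 4 of 4 libraries, by 1.32 (SE 0.09, adjusted *P* = 3.3e-06, edgeR), by 0.56 without cluster 27 (adjusted *P* = 0.00267, edgeR) and by 1.64 within it (adjusted *P* = 0.00815, edgeR). With 1 matched cell for each positive cell, the rise was 1.00 (adjusted *P* = 8.3e-07, edgeR). It was detected in 464 of the 1578 *LamA*-positive cells (29.4%) and in 21.0% of the matched cells, so it did not rest on few cells, and 50.7% of its UMIs in *LamA*-positive cells lay in cluster 20.

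SMESG000014996.1 reached 238 CPM in cluster 27. It rose by 1.69 in *LamA*-positive cells (SE 0.23, adjusted *P* = 0.000742, edgeR), and 80 of the 123 *LamA*-positive cells that held it lay in cluster 27. With 1 matched cell for each positive cell, where cluster 27 made up 13.7% of the matched cells, the rise was 1.005 (adjusted *P* = 0.0318, edgeR). This gene and SMESG000073666.1 were chosen by their levels over clusters of these same cells, so their tests are not independent of that choice. Without cluster 27 the difference was 1.05 (adjusted *P* = 0.216), and within it 0.66 (adjusted *P* = 0.21, edgeR). *klf4l* (r = 0.02) and *nrps* (gut) (r = -0.03) showed no likeness to *LamA* over clusters. Cells with *klf4l* were most frequent in cluster 30 (16.3%), where 5.08% of cells held *LamA* (1.37% thinned) and 1 cell held 14 of the cluster's 38 *LamA* UMIs.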

How the data were processed

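The values are UMI counts, deposited by the authors as 1 matrix of genes and cells for every library. Cell Ranger 5.0.0 had aligned the reads to the sexual strain's genome, called cells and counted UMIs. The deposited counts are not normalized and not pooled. Strand and multimapping settings are not given in the sources used here. Every cell was used (at least 500 UMIs each), and no doublets were removed. A home-made score, the share of simulated doublets among a cell's neighbors, marked as many cells as a rate of 0.8% per 1000 cells gives, for an alternative.

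Cells were clustered with scanpy 1.11.5, leidenalg 0.10.2 and scikit-learn 1.9.0 (3000 variable genes, 50 principal components, 20 nearest neighbors weighted by shared neighbors, resolution 1). The *nrps* cluster had the largest share of *nrps*-positive cells among clusters of at least 20 cells. A cell was positive from 1 UMI upward. Thinned values are expectations over draws of 1000 UMIs without replacement. Library sums entered edgeR 4.0.16 under R 4.3.3 (quasi-likelihood test, scaled by TMM, genes kept by filterByExpr, Benjamini-Hochberg adjustment at 0.05), and an SE is the size of the log2 fold change over the root of F. DESeq2 1.42.0 was an alternative. In simulated data for the matched comparison, 169 of 200 planted log2 changes of 1 and 198 of 200 of 2 were recovered among 13084 genes, and 11 genes were called with none planted. In that for the regions, 3 of 200 changes of 1 and 131 of 200 of 2 were recovered among 18709 genes. Planted genes were drawn at random and not at the count of *LamA*. For shares, exact permutation tests were run over libraries. Leaving out each library, other tools, scalings, filters, depths, clusterings and populations were tried as alternatives.

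Genes were named by rule. *LamA*, *nrps*, *klf4l* and *nrps* (gut) were named because the study gives them by number. The 2 genes most like *LamA* over clusters, the 2 leading genes of a cluster (largest CPM ratio among genes with at least 100 UMIs), and, of the genes that passed with 1 sign in 4 of 4 libraries, the 2 that rose and the 2 that fell most were added. Lists of cell type markers and of basement membrane genes could not be matched to gene IDs and were not used here. The members and lists were chosen with earlier results of these data known.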

Additional observations from a re-analysis of the deposited data

Results flagged for a closer look

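In 6 of the clusters with at least 30 *LamA* UMIs, the *LamA* level of both libraries of a region lay above that of both libraries of the other region, and the direction was not the same in all 6. Anterior levels were higher in cluster 38 (log2 difference of mean CPM, posterior minus anterior, -1.37) and cluster 19 (-1.45). Posterior levels were higher in cluster 17 (0.93), cluster 6 (0.58), cluster 30 (2.98) and cluster 4 (0.66). The difference in regional effect between these clusters was not tested. In cluster 19, 12 cells held 54.8% of the *LamA* UMIs of *nrps*-negative cells, and in cluster 30, 1 cell held 14 of 38. The anterior levels rested on 1 and 2 UMIs in cluster 17, on 0 and 2 in cluster 30 and on 12 and 5 in cluster 38. Of all pairs of a gene and a cluster with at least 30 UMIs, 33.0% did not overlap between regions.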

How the results depend on the processing

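The regional difference in the thinned share of *LamA*-positive cells was -0.0913 percentage points at 500 UMIs and between -0.0246 and 0.339 with each library left out. That in UMIs per positive cell was 0.0435 without thinning, 0.00458 with top doublet scores removed, 0.0343 outside clusters with more than 1% *nrps*-positive cells and between -0.404 and 0.14 with each library left out. The log2 fold change of the level turned to 0.21 in cells of 1000 to 4000 UMIs and 0.37 with clusters weighted equally, and lay between -0.49 and -0.06 with each library left out. The other alternatives kept its sign, and none of these tests passed the threshold. With the replicate number as a block, it was -0.28 (adjusted *P* = 0.856, edgeR) and 47 genes were called in place of 27. In cluster 27, 97 genes were called with that block in place of 10, and in the interaction test 47 in place of 19, with no call for *LamA*. Same-numbered libraries deviated together with a correlation of 0.186 over 18709 genes, and with 2 such pairs the numbers are not taken to pair the libraries.

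Gene counts moved more. For the regions, 593 genes were called with DESeq2, 9 with library sizes in place of TMM, 73 with a filter of at least 1 UMI, 51 after thinning, 51 in cells of 1000 to 4000 UMIs, 2 without top doublet scores and between 0 (without either anterior library, with 802 and 1830 genes at an unadjusted *P* under 0.05 in edgeR) and 548 (without posterior 2) with each library left out. Within cluster 27, 50 were called with the filter of at least 1 UMI and between 27 and 47 with each library left out. For the matched cells, 1052 were called with that filter, 1149 when matched on library and depth only, 283 after thinning, 166 with 1 matched cell, 159 without cluster 27, 40 within it, 0 without the library block (155 at an unadjusted *P* under 0.05), 513 with DESeq2, and between 228 (without posterior 2) and 657 (without anterior 1), with 334 without anterior 2. The cause of these differences was not tested. The share of *LamA* UMIs in the leading cluster moved by less than its SD between libraries (8.73 percentage points) in 18 of 18 alternatives, and the same 5 clusters led after thinning and by share. The rise of SMESG000016182.1 missed the threshold with clusters of resolution 2 (log2 fold change 1.32 in place of 2.89, adjusted *P* = 0.0682) and without posterior 2 (2.25, 0.0603), that of SMESG000014996.1 without cluster 27 and within it, and the fall of SMESG000042676.1 when matched on library and depth only (-2.18 in place of -4.62, 0.0746). The value of *nrps* (gut), never past the threshold, turned to 0.0455 without the library block, 0.0289 without top doublet scores and 0.0406 without cluster 27, and lay between -0.133 and 0.0396 with each library left out. Without the library block, no gene named from the matched cells passed. Removing top doublet scores with the clusters kept, the alternatives outside clusters with more than 1% *nrps*-positive cells, without cluster 27 and within it, cells of 1000 to 4000 UMIs, the interaction test with the replicate block and r without cluster 27 were chosen after the data were seen.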
